A study of Mus musculus with 4 samples.

Results

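Complement and coagulation factors made by the liver were followed as 36 genes, 17 of complement and 19 of coagulation and fibrinolysis. They were chosen by name, and each matched 1 of the 55487 gene identifiers of the count tables. All 36 passed the filter on low counts and were among the 14411 genes tested. Polyadenylated RNA came from 20 mg of frozen liver of 4 female mice, all 11 weeks old and on the FVB background with standard chow. The 2 wild-type mice are labelled WT. The other 2, labelled PA, are hypomorphic and carry the label Pcca-/- (A138T); Pcca is the gene of the alpha chain of propionyl-CoA carboxylase, and the labels do not say how the allele was made or whether the mice shared a litter. FVB mice are known to carry a null allele of Hc, the gene of complement C5, so the terminal complement pathway of both groups is set on that background.

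Complement is a cascade of plasma proteases that marks and lyses cells. It is started by antibody (the classical route), by lectins that bind sugars (the lectin route) or by C3 itself (the alternative route), and it ends in the membrane attack complex. Coagulation is a second protease cascade, which ends with thrombin turning fibrinogen into fibrin, and plasmin later dissolves the clot. Hepatocytes secrete most factors of both cascades, and several of them, fibrinogen among them, are known as acute phase proteins.

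Gene counts summed to 25575016 to 30110400 per library. Pcca gave 60.3 and 58.9 CPM (read counts scaled to a common library size) in WT, against 34.2 and 47.4 in PA (log2 fold change -0.55 with a standard error, SE, of 0.22, edgeR adjusted p = 0.398). Both PA values were lower but the gene was not called, and counts per gene do not show the A138T change, so the labels were checked only in part. The PA livers were further apart than the WT livers, with 31.0 and -39.2 against -0.569 and 8.83 on the second principal component. The share of counts from the mitochondrial genome was 6.90 and 7.38% in WT but 13.6% (replicate 1) and 8.98% (replicate 2) in PA. The hepatocyte markers of the list, Alb, Apoa1, Ttr, Trf, Cps1 and Apob, summed to 146081 to 182317 CPM over the 4 libraries, as the label liver requires.

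Most complement and coagulation transcripts had lower values in the PA livers, and the widest differences were in complement; the difference between the 2 lists was not tested. Of the 36 genes, 32 had a negative log2 fold change (PA minus WT), against 49.4% of all tested genes. The median log2 fold change was -0.39 over the 17 complement genes and -0.25 over the 19 coagulation genes, beside 0.00 over all tested genes. For complement 14 of 17 and for coagulation 18 of 19 were below 0. The widest differences were -1.76 in complement and -0.87 in coagulation, and no gene exceeded 0.10 in the other direction. The order of the 2 medians rested on PA replicate 1. Without it the medians were -0.10 for complement and -0.15 for coagulation.

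The quasi-likelihood test of edgeR called 0 of the 36 genes at an adjusted p of 0.05, where 0.812% of all tested genes were called (38 higher, 0.264%, and 79 lower, 0.548%). At an unadjusted p of 0.05 it held 7 complement genes and 3 coagulation genes, 10 in all and every one of them lower, where 5.93% of all tested genes were lower and 5.88% higher by that rule. limma-voom also called 0 (background 0.409% lower and 0.194% higher), and DESeq2 called 5, all of them complement genes with lower values (C4a, C8a, C9, Mbl1 and Mbl2), where 1.78% of all tested genes were called lower. The counts at an unadjusted p of 0.05 depended on the libraries kept. Leaving out PA replicate 2 gave 10 complement and 7 coagulation genes (background 9.02%), and leaving out PA replicate 1 gave 7 and 3 (background 8.80%). Leaving out WT replicate 1 gave 4 and 0 (background 3.39%), and leaving out WT replicate 2 gave 5 and 0 (background 3.87%). The folds of the 3 coagulation genes stayed negative in these fits, at -0.69 and -0.89 for Fgb, -0.68 and -1.04 for Fgg and -0.84 and -0.71 for F13b without WT replicate 1 and WT replicate 2. With 1 WT liver the spread is taken from the PA pair alone. At an adjusted p of 0.05, edgeR called C4a, C8g and C9 when PA replicate 1 was left out (background 1.16%) and C6, C8a and C9 when PA replicate 2 was left out (background 1.74%). It called C4a alone when WT replicate 2 was left out (background 0.918%) and 0 when WT replicate 1 was left out (background 0.705%). With no filter on low counts it called C4a, C6, C8a, C9 and Mbl1 (background 2.0%), and with the replicate number as a block C4a and C9 (background 1.33%). Each of these was lower in PA, and in none of these fits was a coagulation gene called. In 21 of the 36 genes both PA livers were below both WT livers by CPM, 10 in complement and 11 in coagulation, against 21.9% of all tested genes. In 0 of the 36 were both above, against 21.3%. In liver as a whole, fewer cells of a type and less RNA per cell cannot be told apart. The log2 fold changes of the 6 hepatocyte markers ran from -0.06 to 1.07 with a median of 0.27, 1 of them below 0 and 5 above. Leaving out PA replicate 1 or 2 gave medians of 0.42 and 0.08. DESeq2 called the marker Cps1 higher, as it did 186 of the 14411 tested genes. The part of hepatocyte number in the values of the 36 genes was not tested.

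**Figure D1:**
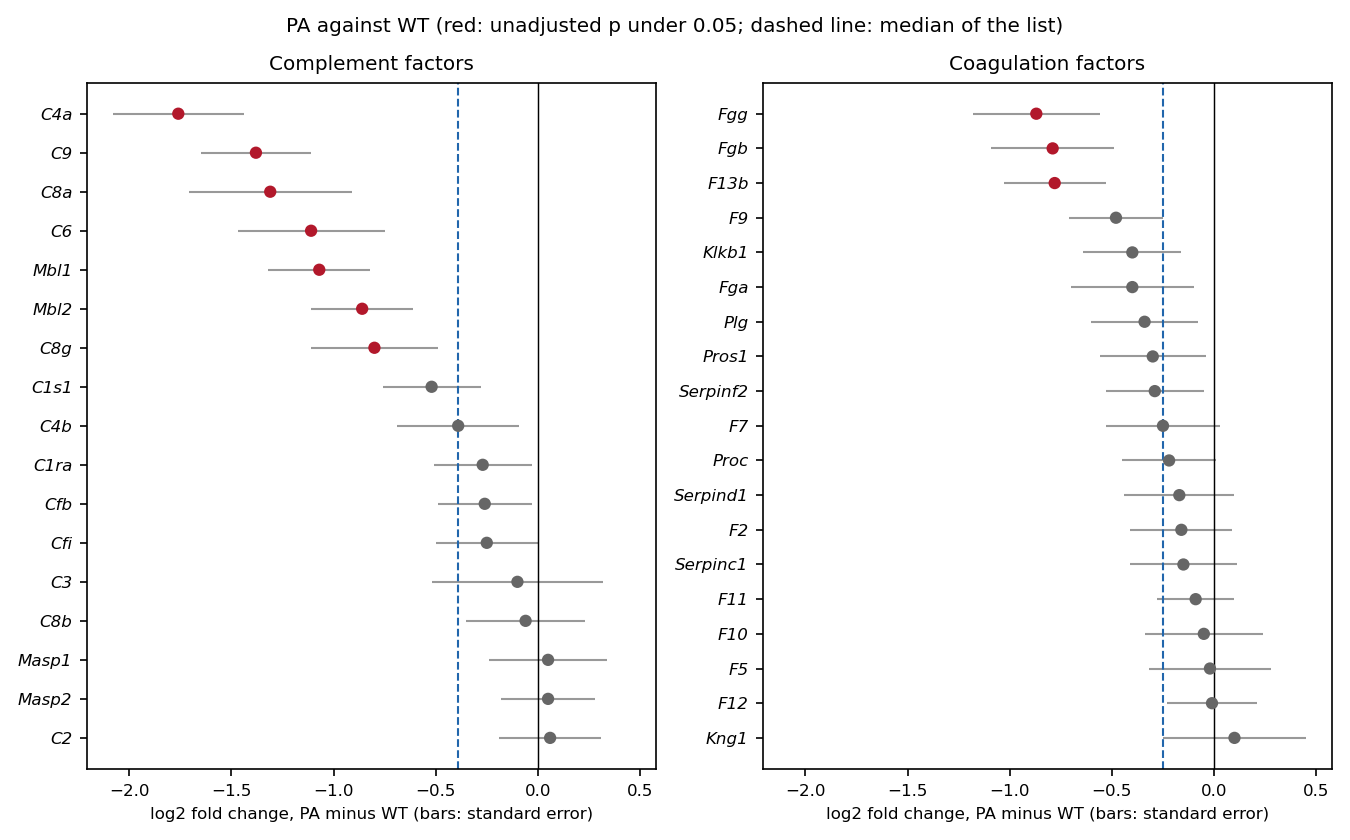
The log2 fold change of each gene (PA minus WT, horizontal axis) is shown with its standard error for complement (left) and coagulation (right), ordered by size. Red points have an unadjusted p under 0.05 and dashed lines mark the medians, -0.39 and -0.25; the 7 red complement genes reach -1.76 and the 3 red coagulation genes reach -0.87.

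**Figure D2:**
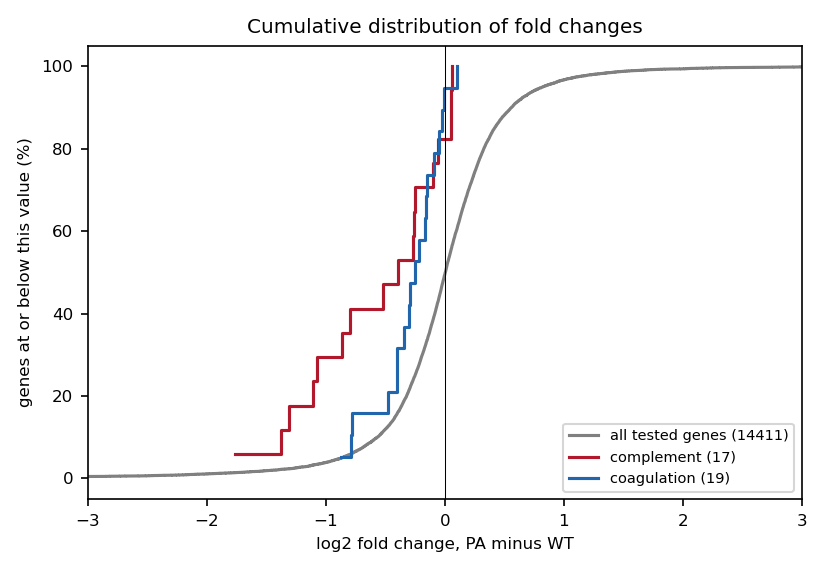
The cumulative share of genes (vertical axis, %) at or below each log2 fold change (horizontal axis, PA minus WT) is drawn for all 14411 tested genes, 17 complement genes and 19 coagulation genes. Both member curves lie to the left of the curve of all genes over most of their range, and the complement curve extends further down.

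The opening steps of the classical and lectin routes differed within themselves. C1ra and C1s1, the serine proteases that sit on C1q, lie next to each other on chromosome 6. C1s1 was read at 580.4 and 714 CPM in WT and at 439.6 and 461 CPM in PA, so both PA values were lower (log2 fold change -0.52, SE 0.24, edgeR adjusted p = 0.474). C1ra overlapped between the groups, at 146 and 177 CPM in WT and 117 and 151 CPM in PA. Masp1 and Masp2, the proteases that ride on the lectins, overlapped as well, with log2 fold changes of 0.05 for each.

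C4a had the widest difference of the 36 genes with all 4 libraries and stranded counts. C9 was wider in unstranded counts (-1.37 against -1.22) and without WT replicate 1 (-1.52 against -1.50), and C8a was widest without PA replicate 2 (-2.10 against -1.50). C4a encodes the sex-limited protein, a close copy of complement C4 that is known to lack its haemolytic activity, and it lies on chromosome 17 (34809092 to 34823464, minus strand, GRCm38; ENSMUSG00000015451). It was read at 6.85 and 4.91 CPM in WT and at 2.08 and 1.41 CPM in PA. Both PA livers were below both WT livers, with means of 5.88 ± 1.37 and 1.75 ± 0.472 CPM (SD, n = 2 each). The fitted difference was -1.76 on the log2 scale, standard error 0.32 (edgeR adjusted p = 0.0751; DESeq2 adjusted p = 0.00164). It was -1.44 with RSEM counts and -1.22 in unstranded counts. C4b, which encodes the active C4, is a near-identical neighbour (34728380 to 34743882) and the reads of the pair can be misassigned, so the values of C4a are uncertain. C4b was at 628 and 712 CPM in WT against 386 (PA replicate 1) and 635 CPM (PA replicate 2), and its groups overlapped (log2 fold change -0.39, edgeR adjusted p = 0.685).

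Both mannose-binding lectins, which recognise sugars on microbes and start the lectin route, had lower values in PA. Mbl1 (chromosome 14, 41151458 to 41159601) was read at 391 and 297 CPM in WT and at 178 and 148 CPM in PA. The fitted difference was -1.07 on the log2 scale, standard error 0.25 (edgeR adjusted p = 0.146; DESeq2 adjusted p = 0.00474). Mbl2 (chromosome 19, 30232942 to 30239687) was at 1277 and 1283 CPM in WT and at 769 and 638 CPM in PA. The WT livers differed by little and the PA livers were both well below them (log2 fold change -0.86, SE 0.25, edgeR adjusted p = 0.238; DESeq2 adjusted p = 0.0217). On the TPM scale, which divides by transcript length and allows genes to be compared within a library, Mbl2 ranked 4 of the 36 in WT and 9 in PA. The ratio of Mbl1 to Mbl2 in TPM was 0.266 and 0.211 in WT and 0.207 and 0.205 in PA.

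C3, on which all routes converge, and the alternative route had smaller differences. C3 was read at 5631 and 4890.2 CPM in WT against 2976 (PA replicate 1) and 6850.2 CPM (PA replicate 2). The PA livers thus lay on either side of the WT livers (log2 fold change -0.10, SE 0.42, edgeR adjusted p = 0.957). In TPM it was at 1276 and 1117 in WT and at 483 and 1486 in PA, and ranked 7 of the 36 in WT and 5 in PA. Cfb, which encodes factor B, the protease of the alternative route, was at 12.6 and 12.5 CPM in WT and at 8.83 and 12.1 CPM in PA (log2 fold change -0.26, edgeR adjusted p = 0.723). Cfi encodes factor I, the protease that cuts C3b and C4b and so limits the cascade. It was at 674 and 772 CPM in WT and at 545 and 671 CPM in PA, just below the lower WT value in PA replicate 2 (log2 fold change -0.25, edgeR adjusted p = 0.768).

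The counts of Cfb and of its neighbour C2, the classical-route protease, depended on how reads were counted. Over the 4 libraries, the STAR count of Cfb was 1.09% of its RSEM expected count and that of C2 was 21.2%, while the median of all tested genes was 116%. Cfb had 225 to 388 reads per library by STAR and 21447 to 34658 by RSEM. The annotated gene Gm20547 covers 6107 bases of Cfb and 19439 bases of C2 on the same strand, and STAR sets reads that fall in more than 1 gene aside. The shortfall was alike in all libraries, as the RSEM count of Cfb was 89.1 to 96.0 times its STAR count. The fold changes were therefore close, at -0.26 and -0.25 for Cfb and 0.06 and 0.09 for C2 with STAR and RSEM counts. On the deposited TPM scale, made from the RSEM counts, Cfb was at 674 and 706 in WT and ranked 11 of the 36. Klkb1, at 56.6%, and C1ra, at 70.8%, were the other 2 genes under 80%, and the remaining 32 were at 109 to 130%.

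In 4 of the 5 genes of the membrane attack complex both PA livers were below both WT livers, against 21.9% of all tested genes. C9, the subunit that polymerises into the pore (chromosome 15, 6445327 to 6498751; ENSMUSG00000022149), was read at 346 and 419 CPM in WT and at 123 and 171 CPM in PA. The WT mean was 2.60 times the PA mean, at 383 ± 51.8 and 147 ± 33.8 CPM (SD, n = 2 each). The fitted difference was -1.38 on the log2 scale, standard error 0.27 (edgeR adjusted p = 0.0851; DESeq2 adjusted p = 0.000118). C6, which joins C5b at the start of the complex and lies on the same chromosome (4727175 to 4814967), had the lowest level of the complex. It was at 17.5 and 12.9 CPM in WT and at 4.59 and 9.46 CPM in PA (log2 fold change -1.11, SE 0.36, edgeR adjusted p = 0.277), and ranked last of the 36 by TPM in both groups.

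The subunits of C8, which inserts the complex into the membrane, did not share one pattern. C8a (chromosome 4, 104815679 to 104876398, minus strand) was read at 257 and 238 CPM in WT against 58.0 (PA replicate 1) and 142 CPM (PA replicate 2). Both PA values were below WT (log2 fold change -1.31, SE 0.40, edgeR adjusted p = 0.259; DESeq2 adjusted p = 0.0276). C8b, its neighbour on chromosome 4 (104766317 to 104804548, plus strand), was at 153 and 136 CPM in WT and at 104 and 174 CPM in PA, and the groups overlapped (log2 fold change -0.06). C8g, a lipocalin on chromosome 2, was at 645 and 537 CPM in WT against 425 (PA replicate 1) and 252 CPM (PA replicate 2) (log2 fold change -0.80, SE 0.31, edgeR adjusted p = 0.372). The PA liver that was lower was thus replicate 1 for C8a and replicate 2 for C8g. In TPM the ratio of C8a to C8b was 1.08 and 1.12 in WT and 0.364 and 0.515 in PA, so C8a was at about the level of C8b in WT and well under it in PA. Without PA replicate 1 the log2 fold changes of C6, C8a and C8g were -0.68, -0.80 and -1.22, and without PA replicate 2 they were -1.73, -2.10 and -0.48.

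**Figure D3:**
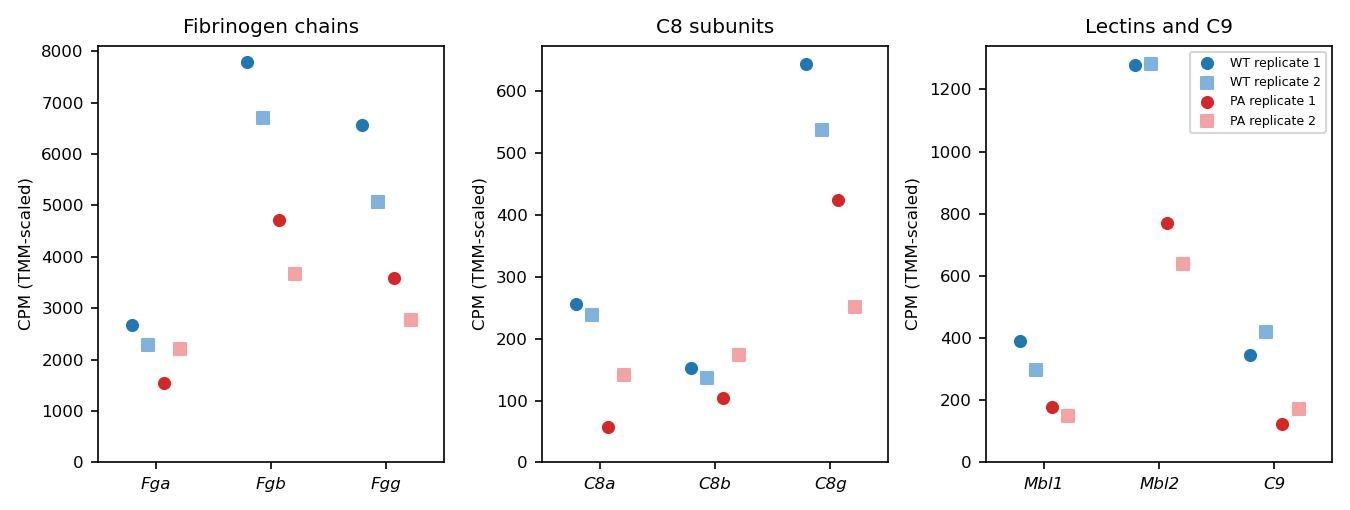
CPM on TMM-scaled library sizes (vertical axes, starting at 0) is shown in each liver for the fibrinogen chains, the C8 subunits, and the lectins with C9. Each point is 1 liver; both PA points are below both WT points for every gene drawn but C8b, with Fga by the narrowest margin (2215 against 2288 CPM).

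With all 4 libraries, the widest differences in coagulation were in the fibrinogen chains Fgb and Fgg and in F13b. The third chain, Fga (-0.40), differed less than F9 (-0.48). The chains are encoded by Fga, Fgb and Fgg, which lie together on chromosome 3 between 83007724 and 83049863. Fgg was the most abundant of the 36 genes by TPM in WT. Fgb was read at 7797 and 6692 CPM in WT and at 4713 and 3661 CPM in PA (log2 fold change -0.79, SE 0.30, edgeR adjusted p = 0.363). Fgg was at 6555 and 5056 CPM in WT and at 3579 and 2774 CPM in PA (log2 fold change -0.87, SE 0.31, edgeR adjusted p = 0.325; DESeq2 adjusted p = 0.0509). Both were lower in each PA liver, and the WT mean was 1.73 and 1.83 times the PA mean.

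Fga had a smaller difference than the other chains with all 4 libraries. Without PA replicate 2 the chains were close, with log2 fold changes of -0.68 for Fga, -0.62 for Fgb and -0.70 for Fgg. It was at 2666 and 2288 CPM in WT against 1548 (PA replicate 1) and 2215 CPM (PA replicate 2) (log2 fold change -0.40, edgeR adjusted p = 0.671). The TPM ratio of Fgb to Fgg stayed between 0.506 and 0.562 in all 4 livers. That of Fga to Fgb was 0.649 and 0.654 in WT against 0.629 (PA replicate 1) and 1.16 (PA replicate 2), so 1 PA liver departed from the common ratio. F13b, the carrier subunit of the transglutaminase that crosslinks fibrin (chromosome 1, 139501702 to 139523752), was at 463 and 500.3 CPM in WT and at 322 and 239.7 CPM in PA. The fitted difference was -0.78 on the log2 scale, standard error 0.25 (edgeR adjusted p = 0.286), and both PA livers were lower.

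The sequences upstream of Fga and Fgb and of C8a and C8b are shown because each pair lies side by side in the genome. With all 4 libraries the members of each pair differed in the size of their fold changes. Fga and Fgb were close without PA replicate 2 (-0.68 and -0.62). The sequence upstream of C9 is shown because C9 had the second widest difference with all 4 libraries. Those of Fgg and C8g are not shown, since their windows overlap other annotated genes. The stretches are from RefSeq (GRCm38.p6), 5′ to 3′ on the strand of the gene, and end before the first base that GENCODE M21 annotates as transcribed. Capitals mark matches to 1 of 4 short motifs.
Fga (chr3:83025903-83026075, plus strand): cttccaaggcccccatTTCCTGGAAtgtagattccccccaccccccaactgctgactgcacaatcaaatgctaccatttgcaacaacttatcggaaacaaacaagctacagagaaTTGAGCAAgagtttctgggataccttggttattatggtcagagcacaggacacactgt
Fgb (chr3:83049864-83050113, minus strand): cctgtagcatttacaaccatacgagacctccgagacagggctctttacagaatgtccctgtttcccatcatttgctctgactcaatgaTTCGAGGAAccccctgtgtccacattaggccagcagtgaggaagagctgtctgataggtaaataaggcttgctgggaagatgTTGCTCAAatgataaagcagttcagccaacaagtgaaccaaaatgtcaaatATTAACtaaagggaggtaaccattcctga
C8a (chr4:104876399-104876648, minus strand): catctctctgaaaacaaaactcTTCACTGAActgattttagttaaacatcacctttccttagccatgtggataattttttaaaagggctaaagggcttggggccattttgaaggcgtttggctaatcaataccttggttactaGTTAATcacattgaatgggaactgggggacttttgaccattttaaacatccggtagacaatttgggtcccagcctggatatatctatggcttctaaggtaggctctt
C8b (chr4:104766067-104766316, plus strand): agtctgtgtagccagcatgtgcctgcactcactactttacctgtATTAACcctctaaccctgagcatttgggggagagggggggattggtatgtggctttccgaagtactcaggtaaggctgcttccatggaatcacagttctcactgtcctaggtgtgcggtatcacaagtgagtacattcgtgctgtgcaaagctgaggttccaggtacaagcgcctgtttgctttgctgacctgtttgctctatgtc
C9 (chr15:6445096-6445326, plus strand): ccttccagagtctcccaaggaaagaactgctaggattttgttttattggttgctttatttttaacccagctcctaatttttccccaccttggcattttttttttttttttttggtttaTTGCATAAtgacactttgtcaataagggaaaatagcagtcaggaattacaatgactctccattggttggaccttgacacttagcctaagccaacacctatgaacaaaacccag

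The motifs were an HNF1 half-site (GTTAAT), a core of HNF4 sites (CAAAGTC), a STAT site (TTCNNNGAA) and a C/EBP site (TTGCNNAA). They were searched on both strands of the 250 bases before each start site, and no 2 matches overlapped in the sequences above. HNF1, HNF4 and C/EBP are liver transcription factors, and STAT3 carries the acute phase signal of interleukin-6. Promoters were found for 27 of the 36 genes. The HNF1 half-site was in 6 of the 27 and in 6.47% of all promoters, the STAT site in 6 and in 7.04%, the C/EBP site in 8 and in 9.57%, and the HNF4 core in 0 and in 3.87%. Fgb held an HNF1 half-site 29 bases, a C/EBP site 80 bases and a STAT site 162 bases before its start. Fga held the same set at 43, 135 and 234 bases, the nearest of them inside the stretch that GENCODE annotates as transcribed and so not shown. Fgg, whose values went with Fgb, held none of the 4. C8a held an HNF1 half-site at 107 bases and a STAT site at 228 bases, and C8b an HNF1 half-site at 206 bases. A match is a string of letters in a window and not a shown site of binding.

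The vitamin K dependent zymogens, which need a carboxylated domain to bind membranes, had log2 fold changes from -0.48 to -0.05. F9, which encodes factor IX on the X chromosome, had the widest difference, at 339.8 and 373 CPM in WT and 239.7 and 272 CPM in PA (log2 fold change -0.48, SE 0.23, edgeR adjusted p = 0.485). F2, which encodes prothrombin, was at 1766 and 1781 CPM in WT and at 1553 and 1621 CPM in PA, lower in both PA livers but by a log2 fold change of only -0.16. F7 and F10, which lie side by side on chromosome 8, overlapped between the groups, with log2 fold changes of -0.25 and -0.05.

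Of the contact factors and factor V, Klkb1 had both PA livers below both WT livers by CPM and the others overlapped. In TPM both PA livers were also below both WT livers for F11 (22.3 and 20.3 in WT, 13.8 and 19.5 in PA). The same held for F12 (211 and 199 in WT, 163 and 191 in PA), while Kng1 and F5 overlapped on both scales. C1ra and C4b of complement, which overlapped by CPM, were likewise lower in both PA livers in TPM. Klkb1, the precursor of plasma kallikrein, was read at 137 and 186 CPM in WT and at 119.9 and 124 CPM in PA (log2 fold change -0.40, edgeR adjusted p = 0.573). Gm45753 overlaps Klkb1 on the same strand over 25189 bases, and STAR sets reads that fall in both genes aside. The STAR count of Klkb1 was 56.6% of its RSEM expected count, and with RSEM counts its log2 fold change was -0.45. F12, the zymogen that starts the contact route, was at 361 and 362 CPM in WT and at 369 and 349 CPM in PA (log2 fold change -0.01). F11 had a log2 fold change of -0.09, and Kng1, the kininogen that carries the contact factors, had one of 0.10. F5, the cofactor of factor Xa, was at 271 and 379 CPM in WT and at 253 and 386 CPM in PA (log2 fold change -0.02, standard error 0.30).

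Anticoagulants and fibrinolytic factors had small negative values throughout. Pros1, the cofactor of activated protein C, had the widest of the anticoagulants, at 38.4 and 52.5 CPM in WT and 29.6 and 43.9 CPM in PA (log2 fold change -0.30, edgeR adjusted p = 0.723). Serpinc1, which encodes antithrombin and was the most abundant of the 36 by TPM in PA, was at 2419 and 2591 CPM in WT and at 2246 and 2257 CPM in PA (log2 fold change -0.15). Proc and Serpind1, which encode protein C and heparin cofactor II, had log2 fold changes of -0.22 and -0.17. Plg, the precursor of plasmin, was at 2529 and 2574 CPM in WT and at 1937 and 2081 CPM in PA, lower in both PA livers (log2 fold change -0.34, SE 0.26, edgeR adjusted p = 0.674). Serpinf2, the inhibitor of plasmin, had a log2 fold change of -0.29. None of these genes had an unadjusted p under 0.05 in edgeR.

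**Figure D4:**
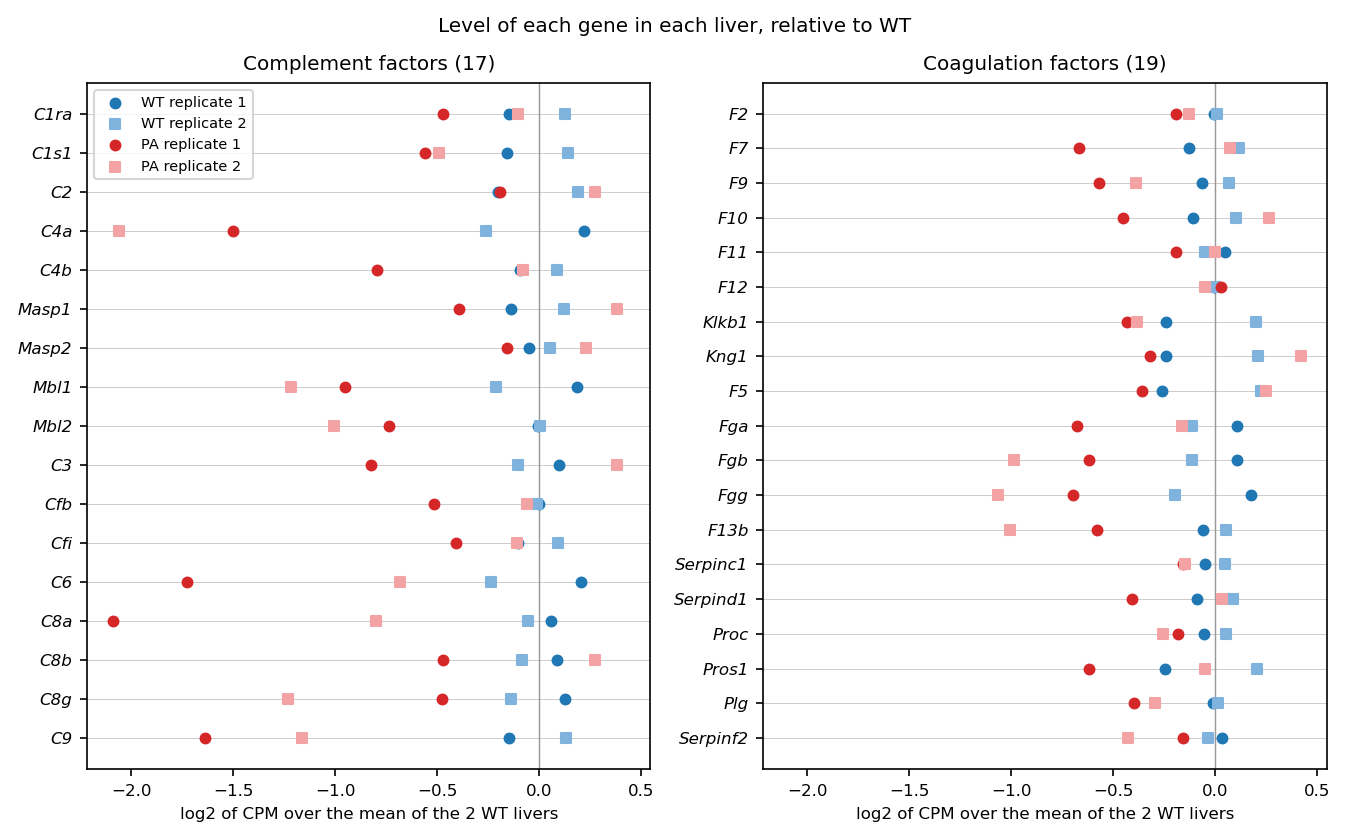
The level of each of the 36 genes in each liver is shown as the log2 of its CPM over the mean of the 2 WT livers (horizontal axis), for complement (left) and coagulation (right). Blue points are WT and red points PA; PA replicate 1 (dark red) is below PA replicate 2 (light red) in 26 of the 36 genes.

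The 2 PA livers did not share 1 profile. PA replicate 1 was below PA replicate 2 in 26 of the 36 genes, 13 in each list, against 49.8% of all tested genes. C3, C8a and C6 were among these, while Fgb, Fgg, F13b, Mbl1, Mbl2, C8g and C4a were lower in PA replicate 2. Without PA replicate 1 the complement median was -0.10 and the coagulation median -0.15, with 12 of 17 and 13 of 19 genes below 0. Without PA replicate 2 the medians were -0.56 and -0.41, with 17 of 17 and 18 of 19 below 0. PA replicate 1 is also the library with the highest share of mitochondrial reads and with 13.53% of reads mapped to several places, against 9.11 to 9.42% in the others; the part of these in the medians was not tested. In a fit without mitochondrially encoded genes, added after the data were seen, the medians were -0.39 and -0.24.

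**Figure D5:**
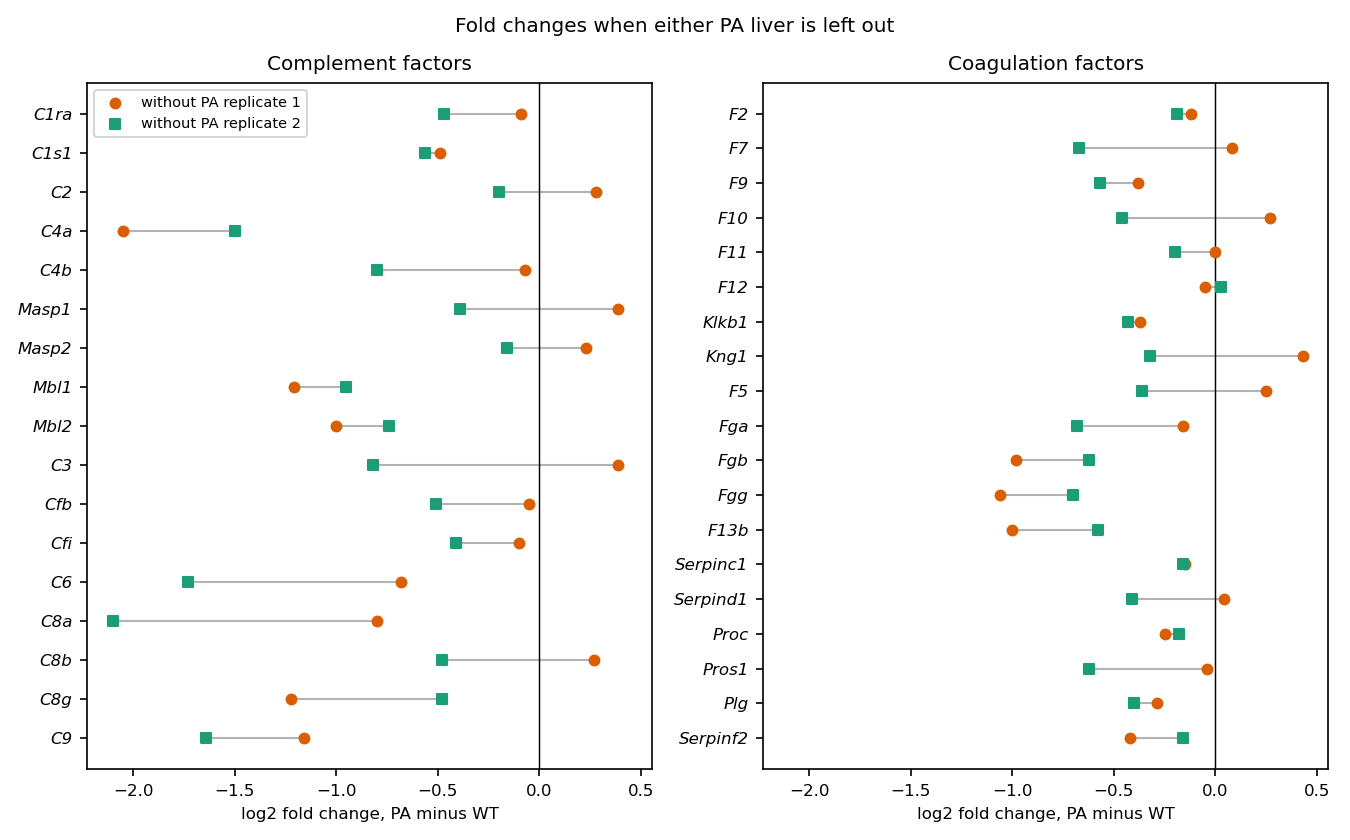
The log2 fold change of each gene (horizontal axis, PA minus WT) is shown when PA replicate 1 (orange) or PA replicate 2 (green) is left out. C4a, C6, C8a, C9, Mbl1, Mbl2, Fgb, Fgg and F13b are below -0.5 either way, and C2, C3, C8b, Masp1, Masp2, F5, F7, F10, F12, Kng1 and Serpind1 lie on different sides of 0.

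Of the other genes of the 2 cascades, those of complement mostly had lower values in PA, and those of coagulation were divided. Among 31 further complement genes 28 were tested and 27 had a negative log2 fold change (median -0.38). edgeR called 0, with 6 lower and 0 higher at an unadjusted p of 0.05. C1qb, a chain of the antibody sensor C1q, was at 72.3 and 62.2 CPM in WT and at 35.5 and 46.9 CPM in PA (log2 fold change -0.71, edgeR adjusted p = 0.266). Cd59b, which encodes a membrane inhibitor of the attack complex, differed by -1.27 on the log2 scale (edgeR adjusted p = 0.191). Hc, named here for the strain's null allele, was read at 442 and 508 CPM in WT and at 344 and 599 CPM in PA.

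Among 26 further coagulation genes 22 were tested, of which 12 had negative and 10 positive values (median -0.04). edgeR called 0 and DESeq2 called 0, with 1 lower and 1 higher at an unadjusted p of 0.05 in edgeR. Plau, the urokinase plasminogen activator, was at 1.11 and 1.49 CPM in WT and at 0.667 and 0.673 CPM in PA (log2 fold change -0.95, edgeR adjusted p = 0.395). Fgl1, a fibrinogen-like protein secreted by hepatocytes, was at 447 and 561 CPM in WT and at 154 and 371 CPM in PA (log2 fold change -0.94, edgeR adjusted p = 0.438).

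C1q is made by Kupffer cells, the macrophages of the liver, and the summed markers of these cells had lower values in PA. The 7 Kupffer markers summed to 432 to 489 CPM in WT and 211 to 317 CPM in PA, and 5 of 7 had a negative log2 fold change. Of the 7 endothelial markers 4 were below 0 and they summed to 211 to 229.7 CPM in WT and 182 to 188 CPM in PA. The 6 stellate cell markers summed to 361 to 374 CPM in WT and 361 to 399 CPM in PA. The 5 erythroid markers summed to 45.7 to 84.5 CPM in WT and 11.5 to 16.1 CPM in PA, and the globins Hbb-bs and Hbb-bt were called lower (edgeR adjusted p = 0.0256 and 0.0302). Platelet and megakaryocyte markers summed to 2.56 to 3.38 CPM over the 4 libraries, with Gp1bb at 0 in every library. B cell markers summed to 12.6 to 15.1 and 3.22 to 5.72 CPM, T cell markers to 2.43 to 3.29 and 1.61 to 2.02 CPM, and neutrophil markers to 2.98 to 6.19 and 1.51 to 2.71 CPM, with Mpo and Ngp at 0 in every library. The 5 cholangiocyte markers summed to 34.3 to 48.2 CPM in WT and 29.8 to 32.5 CPM in PA, although 4 of the 5 had positive log2 fold changes. The hepatocyte markers summed to 153684 and 172824 CPM in WT and to 146081 and 182317 CPM in PA, and 5 of 6 had positive log2 fold changes (median 0.27). The part of these cell types in the values of the 36 genes was not tested.

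Acute phase proteins and liver transcription factors did not go one way. Of 10 acute phase genes 6 had negative and 4 positive values (median -0.27), and edgeR called 0, with 3 lower and 1 higher at an unadjusted p of 0.05. Hp, the haemoglobin scavenger, was at 1278 and 1399 CPM in WT and at 2867 and 2602 CPM in PA (log2 fold change 1.03, edgeR adjusted p = 0.176). Orm1, an acid glycoprotein of plasma, was at 887 and 816 CPM in WT and at 173 and 411 CPM in PA (log2 fold change -1.54, edgeR adjusted p = 0.188). Saa1, a serum amyloid, had a log2 fold change of -0.60. Among 9 liver transcription factors, of which edgeR called 0, Cebpb was at 9.68 and 10.1 CPM in WT and at 24.7 and 14.8 CPM in PA (edgeR adjusted p = 0.209). Foxa2 and Onecut1 had log2 fold changes of 0.40 and -0.92; Onecut1 was at 1.85 (PA replicate 1) and 7.34 CPM (PA replicate 2).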

How the data were processed

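The deposited data gave 2 files per library. Raw read counts per gene were made by the authors with STAR 2.7.6a and expected counts and TPM with RSEM 1.3.3 on GRCm38, per the submitters' processing notes and the file headers; the annotation release is not given in the sources used here. The opposite-strand STAR counts held 96.96 to 97.08% of stranded counts and were used. Lines that name no gene (28.1 to 34.3% of reads) were left out. Of 55487 identifiers, 55227 matched GENCODE M21. Genes were tested with edgeR 4.0.16 in R 4.3.3 (quasi-likelihood test, TMM, filterByExpr, genotype as the only term, all 4 libraries), with Benjamini-Hochberg adjustment over 14411 genes; standard errors are the log2 fold change over the square root of F. CPM are on TMM-scaled library sizes; deposited TPM served to compare genes within a library. A depth of 3 counts equals 0.0996 to 0.117 CPM and covers counting error only. On simulated counts for these 14411 genes the test recovered 29.3% of genes changed by 1 and 89.0% of those changed by 2 on the log2 scale. Alternatives were DESeq2 1.42.0, limma-voom (limma 3.58.1), library sizes only, no filter, RSEM counts, unstranded counts, a replicate block and leaving out each library. P-values rest on the spread between 2 livers a group, and each test moderates the spread of a gene with that of the other genes. Replicates were not duplicates: the chi-square of their counts over its degrees of freedom came to 46.3 (WT) and 135 (PA).

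The 36 genes, the lists and the tests were chosen with earlier results of these data known. Given per liver were genes with an unadjusted p under 0.05, the widest difference in each role and the most abundant gene of each list, and in other lists the called genes or the 3 with the smallest p; further genes, named as partners of these or for their role, were chosen after their values were seen. Some genes that this rule names in the other lists are not reported here.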

Additional observations from a re-analysis of the deposited data

How the results depend on the processing

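With 2 livers a group the edgeR test called 0 of the 36 genes. In simulated counts over all tested genes, not these 36 alone, the test missed most changes of 1 log2 unit. The absence of a call therefore says little. The complement genes called lower numbered 5 with DESeq2, 5 with no filter on low counts and 2 with the replicate block (C4a and C9), and 0 to 3 when 1 library was left out, while coagulation genes called lower numbered 0 in these fits. Over all genes, calls higher and lower were 186 and 256 with DESeq2, 414 and 488 with no filter, and 126 and 192 with the replicate block. They ranged from 50 to 239 and from 105 to 261 when 1 library was left out. The complement median ranged from -0.56 to -0.10 and the coagulation median from -0.41 to -0.14 in those fits. The deviations of same-numbered libraries had a correlation of -0.0907 over genes. With 2 livers a group this is a single value and cannot tell whether the replicate numbers mark a shared litter or batch. The labels name no pairing, so the block served only as an alternative fit. A fit without 1 library takes the spread of the lone liver from the other group.

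Signs changed only in genes with log2 fold changes between -0.25 and 0.10. Leaving out PA replicate 1 and then PA replicate 2 gave 0.28 and -0.20 for C2, 0.39 and -0.82 for C3, 0.27 and -0.48 for C8b, 0.27 and -0.46 for F10, -0.05 and 0.03 for F12, 0.25 and -0.36 for F5, 0.08 and -0.67 for F7, 0.43 and -0.32 for Kng1, 0.39 and -0.39 for Masp1, 0.23 and -0.16 for Masp2, and 0.04 and -0.41 for Serpind1. Without WT replicate 1 they were -0.13 for C2, 0.03 for C8b, -0.12 for Kng1, -0.08 for Masp1 and -0.02 for Masp2, and without WT replicate 2 0.07 for F10 and 0.25 for F5. F12 was 0.03 with RSEM counts. The cause was not tested.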
